A study of Mus musculus with 6 samples.

Results

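The Schlafen genes are a family of vertebrate genes, named for the German word for sleep, that lie side by side in the mouse genome. Naïve CD4 T cells, which circulate in a resting state until they meet antigen, express several of them. The genes described here are Slfn1, Slfn2, Slfn3, Slfn5, Slfn8 and Slfn9, chosen by their symbols and not by their values. They are 6 of the 46983 genes in the count tables, and all 6 were among the 12336 genes that passed the filter on low counts and were tested.

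RNA sequencing was performed on ribosomal RNA-depleted total RNA of naïve CD4 T cells from male mice, with 3 control and 3 Rnmt cKO libraries. Cells were sorted from lymph nodes as live TCRb+ CD4+ CD62L+ CD44- cells. Both groups carried floxed Rnmt alleles (Rnmt fl/fl), in which loxP sites flank a single coding exon, on a C57B6/J background. Controls lacked the CD4cre transgene (CD4cre -) and Rnmt cKO mice carried it. The transgene uses regulatory sequence of Cd4 and so acts from the thymus onwards in the T cell lineage, in CD8 as well as CD4 T cells. Because no control carried Cre with unfloxed Rnmt, the presence of the transgene and the deletion of Rnmt cannot be told apart. The age of the mice was not given in the sources used here, and neither was whether each library came from 1 animal, so that p-values measure the spread between these samples.

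Schlafen genes are known for restraining growth and holding T cells in quiescence, and for acting on RNA. In the mouse they fall into short members (Slfn1 and Slfn2), an intermediate one (Slfn3) and long members with an additional helicase-like region (Slfn5, Slfn8 and Slfn9). Slfn2 is required for the survival of resting T cells and binds transfer RNAs, which it shields from cleavage, and long Schlafen proteins of other species cleave transfer RNA. Several Schlafen genes are transcribed in response to type I interferon, which acts through a short promoter element, the interferon-stimulated response element (ISRE).

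The question addressed here is which Schlafen genes differed between control and Rnmt cKO naïve T cells. RNMT is the enzyme that methylates the guanosine cap of transcripts of RNA polymerase II. The targeted gene, Rnmt, held 438, 588 and 524 counts in controls 1, 2 and 3 and 397, 444 and 297 counts in Rnmt cKO libraries 1, 2 and 3. Its normalised read count (CPM, counts in proportion to library size after TMM scaling) averaged 56.02 ± 3.94 in the control group against 35.3 ± 7.88 in the Rnmt cKO group (SD, n = 3). Each Rnmt cKO library lay below each control (log2 fold change -0.67, SE 0.20, edgeR exact test with Benjamini-Hochberg adjustment, adjusted p = 0.00035). The counts cover the whole gene, so reads of the transcript without the deleted exon are included.

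Sense counts in genes ranged from 8873413 to 11277764 per library. The share of uniquely mapped reads that lay in no gene was 36.1% to 46.1% in controls and 31.8% to 47.9% in Rnmt cKO libraries, and overlapped between the groups. The 7 T cell markers summed to 2792 to 3050 CPM in controls and 2652 to 3150 CPM in Rnmt cKO libraries and were high in all 6 libraries, as the label of CD4 T cells requires. The markers of other cells were far lower, but several differed between the groups. The 7 B cell markers summed to 41.0 to 48.9 CPM in controls and 53.7 to 91.6 CPM in Rnmt cKO libraries, and the 8 myeloid markers to 6.99 to 9.05 CPM and 15.9 to 37.8 CPM. The sums of the 5 plasma cell markers (48.4 to 55.9 against 66.0 to 85.2 CPM) and of the 5 NK cell markers (4.31 to 6.70 against 7.82 to 15.9 CPM) were also higher in each Rnmt cKO library than in each control. The plasma cell markers did not all move one way, as Xbp1 and Jchain were higher in each Rnmt cKO library, Prdm1 was lower in each, and the other two overlapped. The 2 CD8 T cell markers (21.7 to 23.3 against 13.5 to 17.3 CPM) and the 4 erythroid markers (4.20 to 6.23 against 0.986 to 1.16 CPM) were lower. The sums of the 8 memory and effector T cell markers overlapped (178.9 to 189.3 against 169.3 to 205.2 CPM). Of these 8 markers, 3 were tested, of which 1 was called higher and 1 lower in Rnmt cKO cells (edgeR exact test). No list had a marker at 0 counts in all 6 libraries, and the myeloid, NK, erythroid and memory lists each held 1 marker with at most 3 counts in every library. In a sorted population, more cells of another type and more RNA per cell cannot be told apart.

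The 6 genes lie within 263.8 kb of chromosome 11 (mm10), and all are protein-coding. From the centromeric end, Slfn5 (ENSMUSG00000054404) spans chr11:82951349-82964840 on the plus strand, Slfn9 (ENSMUSG00000069793) chr11:82978390-82991830 on the minus strand and Slfn8 (ENSMUSG00000035208) chr11:83002158-83020810 on the minus strand. Slfn2 (ENSMUSG00000072620) spans chr11:83065112-83070678, Slfn1 (ENSMUSG00000078763) chr11:83116849-83122670 and Slfn3 (ENSMUSG00000018986) chr11:83191330-83215154, all on the plus strand. The pseudogene Slfn10-ps lies between Slfn8 and Slfn2, and Slfn4 between Slfn1 and Slfn3.

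The longest annotated proteins have 337 residues for Slfn1, 378 for Slfn2, 517 for Slfn3, 884 for Slfn5 and 910 each for Slfn8 and Slfn9. Slfn8 and Slfn9 are close paralogues, head to tail on the same strand, and their coding sequences were identical at 92.7% of 2730 aligned bases. Their promoters are alike as well. Over the RefSeq windows from 250 bases before to 50 bases after the start site, 240 of 274 aligned bases were identical, which is 87.6%.

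The stretches of 250 bases before the start sites of the long members are shown because these genes hold the core letters of an ISRE there (RefSeq, GRCm38.p6, 5′ to 3′ along the transcribed strand). They lie at chr11:82991831-82992080 on the minus strand for Slfn9, chr11:83020811-83021060 on the minus strand for Slfn8 and chr11:82951852-82952101 on the plus strand for Slfn5. Capitals mark a match to the core letters GAAA, 2 bases of any kind and GAAA, searched on both strands.
Slfn9: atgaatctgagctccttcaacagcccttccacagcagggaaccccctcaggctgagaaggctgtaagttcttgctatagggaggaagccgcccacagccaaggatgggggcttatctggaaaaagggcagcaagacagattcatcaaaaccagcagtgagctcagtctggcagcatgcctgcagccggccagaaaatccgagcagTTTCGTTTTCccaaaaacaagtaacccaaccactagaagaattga
Slfn8: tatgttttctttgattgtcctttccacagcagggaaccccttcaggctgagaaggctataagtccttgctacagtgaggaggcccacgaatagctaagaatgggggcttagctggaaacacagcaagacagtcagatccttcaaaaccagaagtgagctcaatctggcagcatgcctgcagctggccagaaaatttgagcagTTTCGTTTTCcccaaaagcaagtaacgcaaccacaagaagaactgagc
Slfn5: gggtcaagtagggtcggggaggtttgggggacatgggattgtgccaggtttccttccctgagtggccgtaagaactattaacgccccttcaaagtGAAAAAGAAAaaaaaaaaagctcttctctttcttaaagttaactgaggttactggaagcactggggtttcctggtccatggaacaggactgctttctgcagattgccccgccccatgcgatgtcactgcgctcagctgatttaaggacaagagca

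In Slfn9 the match ran from -45 to -36 relative to the start site and read on the opposite strand. In Slfn8 the same 10 letters stood at -48 to -39 from the start site used here, and at -136 to -127 from a second RefSeq start site of that gene. In Slfn5 the match ran from -155 to -146 on the transcribed strand. The GENCODE span of Slfn5 given above begins at 82951349, upstream of the RefSeq start site used here. The Slfn5 stretch shown, with its match, therefore lies inside that span. The windows of Slfn1, Slfn2 and Slfn3 held no match to these letters. Of all 32851 mouse windows of this length, 3.44% held a match. Among the interferon-induced effector genes described below, 18 of the 31 with a RefSeq window held one, or 58.1%, against 3.99% of the 27025 genes with a window. The shorter interferon gamma element TTCNNNGAA, present in 8.30% of windows, was matched in none of the 6 genes.

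Naïve CD4 T cells of both genotypes expressed the family at very unequal levels. Levels are compared between genes per length (RPKM, here the CPM divided by the summed exon length in kilobases). In controls, Slfn2 was at 225.3 ± 23.8 RPKM and Slfn1 at 149.0 ± 14.2 RPKM (SD, n = 3), above 98.3% and 97.6% of the tested genes. Slfn8 followed at 52.6 ± 2.19 RPKM and Slfn5 at 24.9 ± 3.05 RPKM. Slfn3 and Slfn9 were far below, at 4.40 ± 0.421 and 2.05 ± 0.186 RPKM, and Slfn9 was the lowest of the 6 and above 19.0% of tested genes. In controls no neighbours in this order overlapped between libraries. In Rnmt cKO cells the means kept this order, but Slfn3 (3.76 to 4.95 RPKM) and Slfn9 (3.04 to 3.99 RPKM) overlapped.

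Of the 6 Schlafen genes, Slfn9 was higher in Rnmt cKO cells past the threshold and none was lower (edgeR exact test with Benjamini-Hochberg adjustment over all tested genes). Among all tested genes, 8.0% were higher and 6.84% were lower. At an unadjusted p under 0.05, 2 members passed, Slfn1 and Slfn9, both higher. Many genes pass this looser threshold, as Slfn1 ranked 2895 of 12336 tested genes by p-value (unadjusted p = 0.0410, edgeR exact test). No other test or setting that was tried called a member lower. The median log2 fold change of the members was 0.05, against 0.01 over all tested genes, and the 5 members other than Slfn9 lay between -0.08 and 0.24.

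Slfn9 held 110, 124 and 98 counts in controls 1, 2 and 3 and 174, 212 and 262 counts in Rnmt cKO libraries 1, 2 and 3. These counts correspond to 12.9, 12.4 and 10.8 CPM in controls against 18.4, 17.9 and 23.5 CPM in Rnmt cKO libraries. All 3 Rnmt cKO libraries lay above all 3 controls, as was the case for 16.6% of tested genes, and Rnmt cKO library 3 was the highest. The mean rose from 12.04 ± 1.09 to 19.9 ± 3.10 CPM (SD, n = 3), a 1.65-fold difference (log2 fold change 0.73, SE 0.15, edgeR exact test, adjusted p = 0.000329). The 95% interval of the fold from limma-trend was 1.31 to 2.05. Of the tested genes, 4.78% had a larger log2 fold change, and Slfn9 ranked 637 by p-value.

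The values of Slfn9 are also given within sets of libraries with a like share of reads outside genes, each of which has a single library in 1 group and so no test. Among the libraries with a low share, it was at 12.7 CPM on average in controls 1 and 2 and at 23.5 CPM in Rnmt cKO 3 (log2 ratio 0.89). Among those with a high share, it was at 10.8 CPM in control 3 and at 18.1 CPM on average in Rnmt cKO 1 and 2 (log2 ratio 0.74). The B cell, plasma cell, myeloid and NK cell marker sums were also higher in all Rnmt cKO libraries than in all controls. The part of these cells in the Slfn9 difference was not tested.

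**Figure D1:**
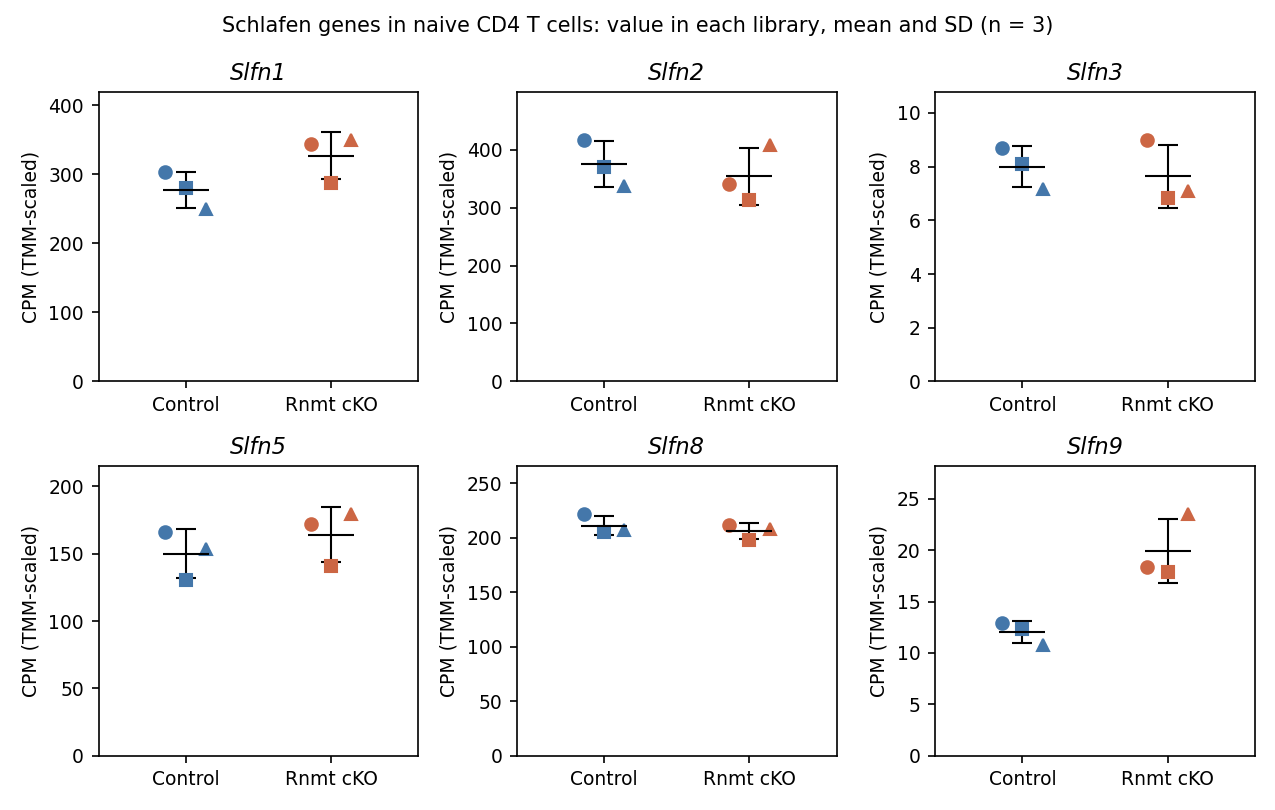
Normalised read counts (CPM, vertical axes starting at 0) of the 6 Schlafen genes in the 3 control (blue) and 3 Rnmt cKO (orange) libraries; the circle, square and triangle are replicates 1, 2 and 3, the long bar is the mean and the whiskers are 1 SD. Slfn9 alone has all Rnmt cKO libraries (17.9 to 23.5 CPM) above all controls (10.8 to 12.9 CPM).

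Slfn8, the closest paralogue of Slfn9, did not differ detectably. It was at 221.3, 205.2 and 207.0 CPM in controls, and at 211.6, 198.0 and 208.4 CPM in Rnmt cKO libraries, and the groups overlapped. The means were 211.2 ± 8.79 and 206.0 ± 7.09 CPM (SD, n = 3), with a log2 fold change of -0.04 (SE 0.04, adjusted p = 0.880, edgeR exact test). This was the most tightly measured of the 6 genes, with a 95% interval of -0.20 to 0.13 on the log2 scale.

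The 2 paralogues can be compared within each library, which removes the scaling between libraries. There were 5.85, 6.03 and 5.23 Slfn9 reads per 100 Slfn8 reads in controls and 8.69, 9.03 and 11.3 in Rnmt cKO libraries, without overlap. For comparison, the ratio to Slfn8 was higher in each Rnmt cKO library than in each control for 18.2% of all tested genes. The log2 ratio of Slfn9 to Slfn8 was higher by 0.75 in Rnmt cKO cells (SE 0.13). By an exact permutation test (two-sided) p was 0.10, the lowest value possible with 3 libraries a group, so no ratio in this design could reach 0.05. When each library was left out in turn, the difference ran from 0.64 to 0.83.

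Reads shared between near-identical genes bear on these counts, because only uniquely mapped reads were counted. Of all stretches of 75 bases, the read length, in the annotated transcripts of Slfn9, 5.98% also occurred in another gene's transcript, mostly in Slfn10-ps. For Slfn8 the share was 7.25%, again mostly shared with Slfn10-ps. A miRNA gene, Mir7679, lies inside Slfn9 on the same strand and held 4 counts in all libraries together.

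**Figure D2:**
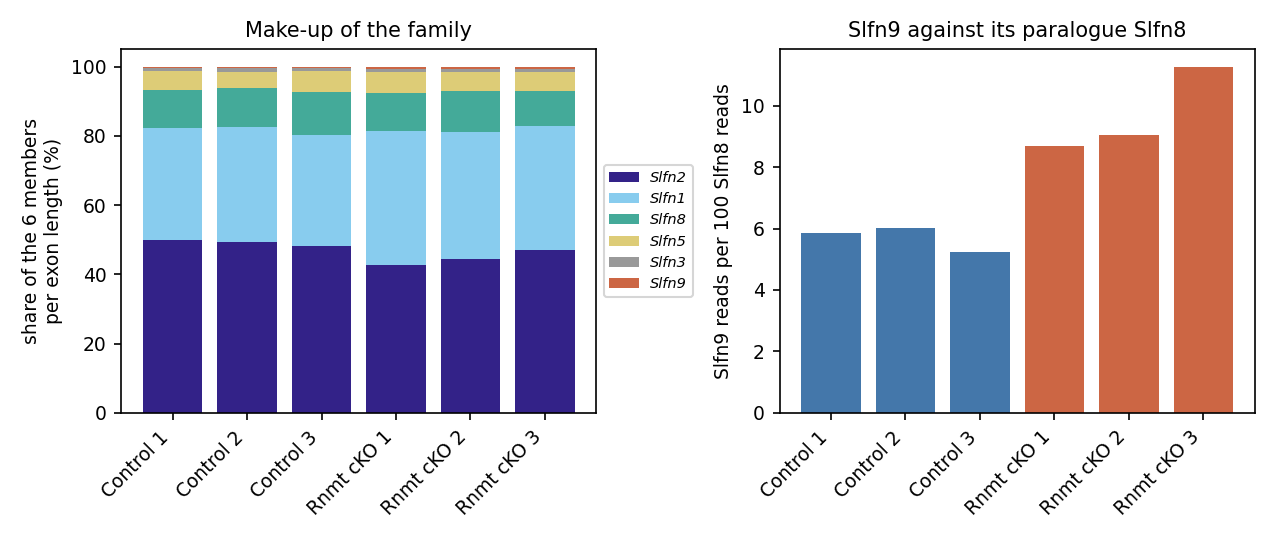
Left, the share (%) of each Schlafen gene in the summed RPKM of the 6 genes, 1 bar per library; right, Slfn9 reads per 100 Slfn8 reads in each library. Slfn2 and Slfn1 make up most of the family in each library, and the Slfn9 bars are 5.23 to 6.03 in controls and 8.69 to 11.3 in Rnmt cKO libraries.

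Slfn1, a short member whose overexpression is known to slow the growth of T cells, was at 303.2, 279.7 and 250.5 CPM in controls, and at 344.2, 288.0 and 349.6 CPM in Rnmt cKO libraries. Rnmt cKO 2 fell within the range of the controls and the other two lay above it. The means were 277.8 ± 26.4 and 327.3 ± 34.1 CPM (SD, n = 3), and the difference did not pass the threshold (log2 fold change 0.24, SE 0.12, edgeR exact test, adjusted p = 0.175). The 95% interval of limma-trend was 0.01 to 0.46 on the log2 scale. With the share of reads outside genes as a covariate in edgeR's quasi-likelihood test, Slfn1 did pass (0.26, adjusted p = 0.0159), and likewise with scaling by library size only (0.36, adjusted p = 0.00856).

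Slfn2, the short member needed by resting T cells, was at 416.4, 371.0 and 337.4 CPM in controls, and at 341.2, 312.9 and 409.0 CPM in Rnmt cKO libraries. The groups overlapped, and the highest Rnmt cKO library lay just under the highest control. The means were 374.9 ± 39.6 and 354.4 ± 49.4 CPM (SD, n = 3; log2 fold change -0.08, SE 0.14, edgeR exact test, adjusted p = 0.771). Its 95% interval was -0.33 to 0.16 on the log2 scale.

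The 2 short genes were compared with each other within each library, which is 1 of 15 such pairs of members compared. Of these pairs, 8 did not overlap between the groups. They were all 5 pairs with Slfn9, and the pairs of Slfn1 with Slfn2, Slfn3 and Slfn8. There were 72.8, 75.4 and 74.2 Slfn1 reads per 100 Slfn2 reads in controls and 100.9, 92.0 and 85.5 in Rnmt cKO libraries. These ranges did not overlap, but the ratio to Slfn2 was likewise higher in each Rnmt cKO library for 15.8% of all tested genes. The log2 ratio was higher by 0.32 in Rnmt cKO cells (SE 0.07, exact two-sided permutation p = 0.10, the smallest possible).

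Slfn5, the long member at the end of the cluster, was at 166.5, 130.2 and 153.7 CPM in controls, and at 172.4, 141.1 and 179.2 CPM in Rnmt cKO libraries. The groups overlapped (150.1 ± 18.4 and 164.2 ± 20.3 CPM, SD, n = 3; log2 fold change 0.13, SE 0.15, edgeR exact test, adjusted p = 0.586). Its 95% interval was -0.12 to 0.38 on the log2 scale. Slfn5 holds the ISRE letters shown above, as do Slfn9, which rose, and Slfn8, with values that overlapped. The antisense gene Slfn5os overlaps it on the other strand and held 0 sense counts.

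Slfn3 had the fewest counts, with 74, 81 and 65 in controls and 85, 81 and 79 in Rnmt cKO libraries. Its level was 7.99 ± 0.765 CPM in controls against 7.63 ± 1.18 CPM in Rnmt cKO cells (SD, n = 3; log2 fold change -0.07, SE 0.14, edgeR exact test, adjusted p = 0.913). The groups overlapped, and at this depth the 95% interval was wide, from -0.46 to 0.32 on the log2 scale. Slfn3 is the member least well told from other genes, as 9.87% of its stretches of 75 bases also occurred in another gene's transcript, and its coding sequence was identical to that of Slfn4 at 95.3% of 1521 aligned bases.

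**Figure D3:**
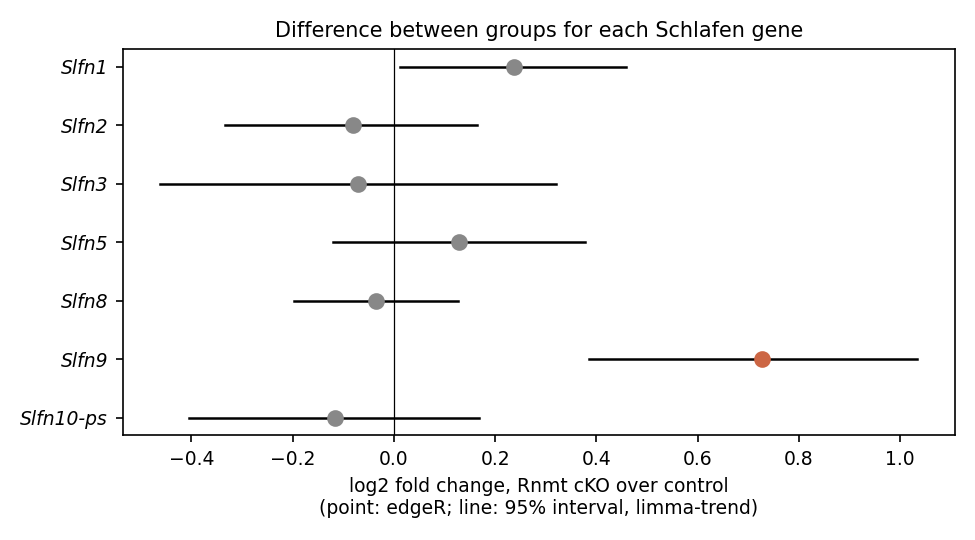
Log2 fold change of each Schlafen gene (horizontal axis, Rnmt cKO over control) from edgeR as a point, with the 95% interval from limma-trend as a line; orange marks an adjusted p under 0.05. Slfn9 lies at 0.73 with an interval of 0.39 to 1.03, and the intervals of Slfn2, Slfn3, Slfn5, Slfn8 and the pseudogene Slfn10-ps include 0, while that of Slfn1 starts at 0.01.

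Summed over the 6 genes, the family was at 1034 ± 84.5 CPM in controls against 1080 ± 107 CPM in Rnmt cKO cells (SD, n = 3), with overlapping libraries. Per exon length, Slfn2 made up 49.1% of the family in controls and 44.8% in Rnmt cKO cells, and Slfn1 32.5% and 37.0%. Slfn8 made up 11.5% and 10.9%, Slfn5 5.44% and 5.73%, and Slfn3 0.960% and 0.890%. The share of Slfn9 was 0.447% in controls and 0.712% in Rnmt cKO cells, so it remained a minor part of the family in both genotypes.

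Of 4 other genes with a Schlafen name, 1 was tested. The pseudogene Slfn10-ps was at 23.6, 28.3 and 27.0 CPM in controls against 25.7, 26.7 and 20.4 CPM in Rnmt cKO libraries, and its groups overlapped (log2 fold change -0.12, edgeR exact test, adjusted p = 0.709). It is the gene that shares most stretches with Slfn8 and Slfn9. Slfn14 held 1 count in all libraries together, and Slfnl1, a Schlafen-like gene on chromosome 4, held 2 to 6 counts per library.

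Slfn4, which is known from macrophages and other myeloid cells, was below the filter. It held 6, 6 and 3 counts in controls and 14, 21 and 9 counts in Rnmt cKO libraries. The totals were 15 (95% exact Poisson interval 8.40 to 24.7) and 44 (32.0 to 59.1), intervals that cover counting error only. With no filter, the log2 fold change was 1.30 and did not pass adjustment over 27286 genes (edgeR exact test, adjusted p = 0.188). The myeloid marker sums given above were higher in the same libraries, at 15.9, 37.8 and 26.4 CPM in Rnmt cKO libraries 1, 2 and 3 against at most 9.05 CPM in controls. Their part in the Slfn4 counts was not tested.

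The genes flanking the cluster were examined next, to describe the region. Of 24 protein-coding genes within 500000 bases of either end of the cluster, 8 were tested, of which 2 were higher and 1 was lower. Among all tested genes, 8.0% were higher and 6.84% were lower, and counts this small are not read as a trait of the region. Rad51d, a factor of homologous recombination, rose from 26.9 ± 1.93 to 35.7 ± 2.45 CPM (log2 fold change 0.41, edgeR exact test, adjusted p = 0.00708). Rffl, a ubiquitin ligase gene next to Rad51d, fell from 28.8 ± 1.62 to 19.3 ± 0.635 CPM (log2 fold change -0.58, adjusted p = 6.401e-05, same test). Genes on both sides of Slfn9, namely Slfn5 and Slfn8, did not pass the threshold.

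**Figure D4:**
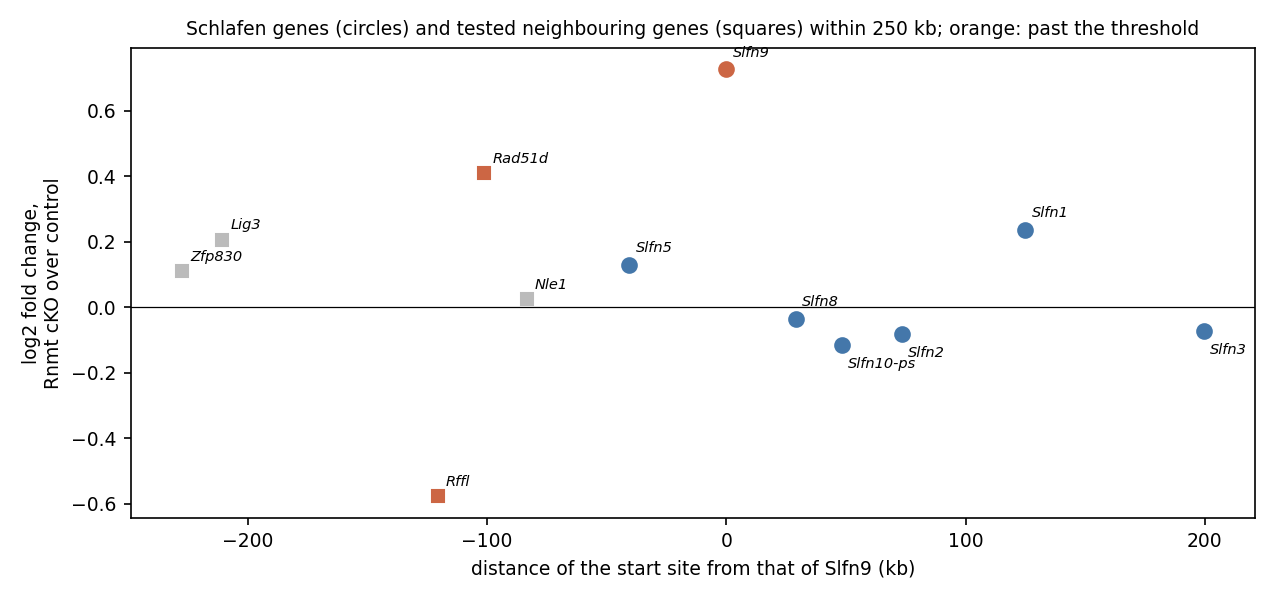
Log2 fold change (Rnmt cKO over control) of Schlafen genes (circles) and tested neighbouring genes (squares) that start within 250 kb of Slfn9, against the distance of their start sites from that of Slfn9 in kb; orange marks genes past the threshold. Slfn9 at 0.73 stands between Slfn5 at 0.13 and Slfn8 at -0.04, and the other genes past the threshold in this range (Rffl and Rad51d) lie outside the cluster.

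Genes of pathways that Schlafen genes are known to take part in were described from lists of known members. Of 18 tested genes of interferon signalling (receptors, kinases, transcription factors and inhibitors), 8 rose, against the 8.0% of all tested genes given above, with a median log2 fold change of 0.20 against 0.01 over all tested genes. The transcription factors Irf9 (log2 fold change 0.57) and Stat2 (0.41), whose products bind the ISRE together, the kinase gene Jak2 (0.40) and the inhibitors of cytokine signalling Socs3 (1.66) and Socs1 (0.91) were among them. Socs3 rose from 159.2 ± 7.71 to 502.8 ± 33.4 CPM (SD, n = 3, edgeR exact test, adjusted p = 6.953e-56). The interferon genes Ifna1, Ifna4, Ifnb1 and Ifng were below the filter.

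Of 43 tested interferon-induced effector genes, 29 rose and 1, Gbp7, fell, against 8.0% and 6.84% of all tested genes. Their median log2 fold change was 0.51. Isg15, a ubiquitin-like modifier, held 63, 62 and 48 counts in controls and rose to 211, 130 and 224 counts in Rnmt cKO libraries (log2 fold change 1.49). Ifit3b, which encodes an antiviral protein of the IFIT family, rose from 5.30 ± 1.55 to 14.8 ± 7.41 CPM (1.48). The antiviral genes Mx1 (1.21), Rsad2 (1.18) and Oas2 (1.13) rose as well. The marker sums of B, plasma, myeloid and NK cells were higher in the same libraries, and their part in these lists was not tested.

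Quiescence genes did not move one way. Of 19 tested genes, 4 rose and 1 fell, against 8.0% and 6.84% of all tested genes, and the median log2 fold change was 0.11. The antiproliferative gene Btg1 (log2 fold change 0.64), the transcription factor Klf2 (0.57) and the egress receptor S1pr1 (0.30) rose. Il7r, the receptor chain for interleukin 7, fell from 367.7 ± 27.2 to 189.5 ± 14.4 CPM (log2 fold change -0.96, edgeR exact test, adjusted p = 2.436e-17). Of 8 tested genes that cleave, repair, modify or protect transfer RNAs, 1 rose (12.5%), against the same 8.0% of all tested genes. It was the methyltransferase Nsun2 (log2 fold change 0.29, adjusted p = 0.0341, edgeR exact test), and most other tests and settings did not call it.

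Of 30 cell cycle genes, all tested, 26 rose, against 8.0% of all tested genes, with a median log2 fold change of 1.72. Many were at low levels in controls. Only 23 of the 30 exceeded 1 CPM in each control, so the others needed Rnmt cKO libraries to pass the filter. When each library had to exceed 1 CPM, 22 cell cycle genes were tested and 19 rose. Cyclin A2 (Ccna2) rose from 1.41 ± 0.191 to 18.0 ± 1.83 CPM (log2 fold change 3.66) and Mki67, a marker of cycling cells, from 15.2 ± 2.45 to 117.1 ± 10.3 CPM (2.94). Top2a (2.56), Rrm2 (2.35) and Uhrf1 (1.98) followed. Against these, the short genes Slfn1 and Slfn2 had log2 fold changes of 0.24 and -0.08. The part of the higher marker sums of other cells in this list was not tested.

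**Figure D5:**
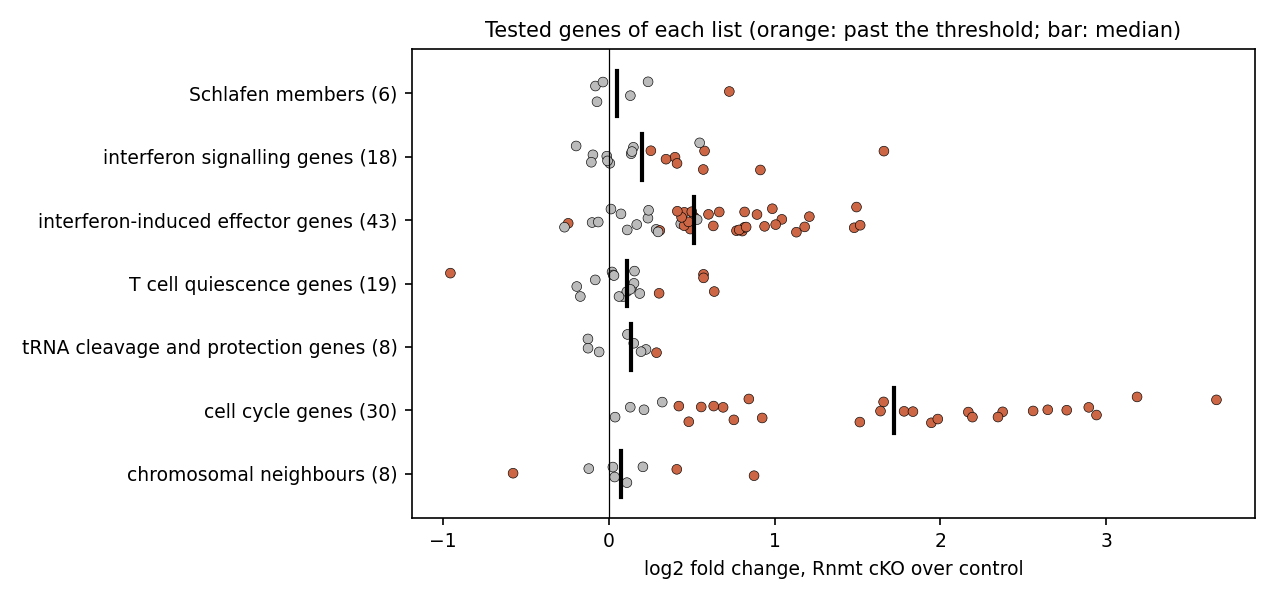
Log2 fold change (horizontal axis, Rnmt cKO over control) of each tested gene of the Schlafen family and of 6 gene lists, with the number of tested genes in parentheses; orange marks genes past the threshold and the bar is the median. The medians are 0.05 for the Schlafen genes, 0.51 for interferon-induced effector genes and 1.72 for cell cycle genes.

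The genes whose pattern over the 6 libraries was most like that of each member were found by the Pearson correlation of log2 CPM among 9705 genes with a mean of at least 5 CPM. These correlations are descriptions, since all points share libraries, depth and genotype. For Slfn9 they were Cdc42se1 (r of 0.999), Ctsa (0.998) and Gimap9 (0.997), of which Cdc42se1 (log2 fold change 0.41) and Ctsa (0.57) also rose past the threshold. For Slfn1 the closest gene was Cant1 (0.993), for Slfn3 Stx4a (0.981), for Slfn5 Hmgcs1 (0.992) and for Slfn8 Dynlt1f (0.975). No Schlafen gene was among the 3 genes closest to another.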

How the data were processed

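Libraries were prepared with an Illumina TruSeq kit after Ribo-Zero rRNA depletion and sequenced as paired 75-base reads. The authors aligned reads to mm10 with STAR 2.5.2b, using GENCODE vM12 (basic set), and deposited, per library, raw counts of uniquely mapped reads for 46983 genes in 3 columns (either strand, antisense, sense). The authors also deposited a table of edgeR fold changes and p-values, which were not used, with a normalised signal per sample. That signal equalled the sense counts divided by 1 constant per library for 100% of its 11221 genes (within 0.1%), so sense counts were used.

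Genes above 1 CPM in at least 3 samples were tested with the edgeR 4.0.16 exact test. Settings were R 4.3.3, TMM, tagwise dispersion, Benjamini-Hochberg adjustment over all tested genes and a threshold of 0.05. Both the exact test and this filter are described by the study. Here the filter left 12336 genes, with 987 called higher and 844 lower. A stricter filter, above 1 CPM in each library, left 11232 genes, with 845 higher and 753 lower. The study reports the same numbers of higher and lower genes, so its calls match the stricter filter. Log2 fold changes are those of Rnmt cKO cells over controls, their SE comes from log2 CPM per sample (prior count 2), and 95% intervals come from limma-trend (limma 3.58.1). Reads in no gene, ambiguous and multimapping reads stayed out of library sizes. Multimapping reads were 11.8% to 17.5% of reads in controls and 8.27% to 13.9% in Rnmt cKO libraries, and the groups overlapped. Ratios between members were compared with exact permutation tests (scipy 1.17.1). DESeq2 1.42.0, edgeR's quasi-likelihood test with and without a replicate block or a covariate, limma-trend, other scalings, other filters, reads of either strand and leaving out each library were alternatives. Leaving out libraries for the ratios between members was added after seeing the data.

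Coordinates and exon lengths came from GENCODE vM21 (46488 of 46983 identifiers found) and promoters from RefSeq GRCm38.p6, in which all 6 members were matched. Sequences were aligned with Biopython 1.88. Replicate libraries all differed beyond sampling noise (chi-square per degree of freedom 3.85 to 25.2). The code was tested on simulated data for this comparison, with 12178 genes tested. Of 96 genes changed by 1 on the log2 scale the exact test recovered 87.5%, and of 103 changed by 2 it recovered 100%. It also called 30 unchanged genes, a larger share of its calls than the threshold on adjusted p aims at. The quasi-likelihood test, DESeq2 and limma called 17 to 22 unchanged genes, and recovered 82.3% to 83.3% of the genes changed by 1. The members and lists were chosen with earlier results of these data known. Named genes are all members and other Schlafen genes, Rnmt, for each list the 5 genes with the largest change among those past the threshold whose mean is 5 CPM or more and whose groups do not overlap, and the genes most like each member. Gbp7 and the interferon genes at low counts were named after their values were seen. Some genes that meet this rule are not reported here.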

Additional observations from a re-analysis of the deposited data

Results flagged for a closer look

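Reads on the strand opposite to the gene, which no comparison above used, were counted for the Schlafen genes. Slfn1 held 2, 6 and 2 antisense counts in controls and 9, 8 and 19 in Rnmt cKO libraries, a mean of 0.352 ± 0.214 CPM in controls against 1.11 ± 0.532 CPM in Rnmt cKO cells (SD, n = 3). Slfn2 held 10, 13 and 13 antisense counts in controls and 15, 32 and 22 in Rnmt cKO libraries, a mean of 1.30 ± 0.130 CPM in controls against 2.09 ± 0.566 CPM in Rnmt cKO cells. In both genes each Rnmt cKO library lay above each control, as was the case for 14.5% of 6444 tested genes with at least 10 antisense counts. The antisense counts were 0.131 per 100 sense counts in controls and 0.341 in Rnmt cKO libraries for Slfn1, and 0.349 and 0.600 for Slfn2. An annotated antisense gene, Gm20234, overlaps Slfn2 on the other strand and was not analysed here. The antisense counts of Slfn3, Slfn5, Slfn8 and Slfn9 overlapped between the groups.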

How the results depend on the processing

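Slfn9 was higher in the main test and all 17 alternatives (log2 fold change 0.57 to 0.85) and passed the threshold in all but 1, the quasi-likelihood test with the replicate block (0.72, adjusted p = 0.0544), which called 0 members higher. The replicate numbers were not taken to pair the samples, since deviations of samples with the same number did not correlate positively (r of -0.21, -0.02 and -0.34). Samples with unlike numbers gave r from -0.29 to 0.35, so this check cannot exclude a shared litter or day. The replicate block called 431 genes higher and 276 lower, and it called higher 5 interferon signalling genes, 2 quiescence genes and 1 neighbour. Slfn1 passed with the share outside genes as covariate (0.26) and with library size only (0.36), each of which called 2 members higher. With library size only, Slfn2 (0.041), Slfn3 (0.055) and Slfn8 (0.090) changed direction, none past the threshold, as the median of all tested genes moved from 0.01 to 0.14 and the higher share of calls from 53.9% to 78.4%.

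The covariate called 1696 genes higher and 1466 lower, 1 interferon signalling gene lower, 3 quiescence genes lower and 2 transfer RNA genes higher. Library size only called 1938 genes higher and 535 lower, 7 quiescence genes and 3 transfer RNA genes higher. The interferon-induced effector called lower was lost (0 genes) with library size only, the quasi-likelihood test with or without the block, DESeq2, no filter and reads of either strand. The transfer RNA gene called higher was lost (0 genes) with both quasi-likelihood tests without the covariate, DESeq2, limma-trend, RLE size factors, no filter and reads of either strand. With a filter of 10 CPM, 17 cell cycle genes were tested, of which 13 were called higher, and Slfn3 was not tested.

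Leaving out each library in turn gave 643 to 1221 genes higher and 547 to 1285 lower. Those that moved a count most were control 2 (656 higher and 560 lower without it), Rnmt cKO 2 (643 and 547), control 1 (559 lower) and Rnmt cKO 3 (1285 lower). Interferon signalling genes called higher were 5 to 8 (5 without control 2, control 3 or Rnmt cKO 1), effector genes higher 18 to 32 (19 without control 3, 18 without Rnmt cKO 1) and lower 0 to 1, transfer RNA genes higher 0 to 1, and neighbours higher 1 to 2. Slfn9 ranged from 0.57 to 0.80 and stayed past the threshold without any 1 library. With 12.04 CPM in controls, Slfn9 rests on 98 to 262 counts per library, and Slfn3 and Slfn4 on fewer, so that small differences in these 2 genes were not detectable at this depth.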
